A study of Oryctolagus cuniculus with 3 samples.

Results

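GDF9, BMP15 and BMP6 are secreted growth factors of the TGF-beta superfamily that mammalian oocytes are known to make. They were taken from the gene tables by exact gene name, which gave 4 rows of 39681 loci for the 3 genes, because BMP15 names 2 rows. RNA came from cumulus-oocyte complexes, each an oocyte with the somatic cells around it, collected from the ovaries of female IRA rabbits that were 35 days old when a 4-week exposure to ammonia began. The groups were LAC (low ammonia, 10 ppm), HAC (high ammonia, 30 ppm) and CG (control, below 3 ppm), drawn from 150 rabbits, and no other treatment or genotype is labelled. Each group had 1 library, so no difference below has a replicate check, and the sources used here do not say how many rabbits stand behind a library. Ammonia group, animals and library preparation therefore cannot be told apart.

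GDF9 and BMP15 pair in the follicle: both are cut from precursors and secreted by the oocyte, and they act on the granulosa and cumulus cells through serine-threonine kinase receptors that phosphorylate SMAD proteins. BMP15 and BMP6 signal mainly through the SMAD1, SMAD5 and SMAD8 branch, whereas GDF9 uses the SMAD2 and SMAD3 branch. In mouse, the oocyte factors promote cumulus expansion, glycolysis and cholesterol synthesis in the cumulus cells. BMP6 is also made by other cells, among them granulosa cells in rat.

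Gene values were usable for the libraries labelled LAC and CG. The gene table in the file of HAC is the same as that of LAC in every cell and is headed LAC, so HAC has no gene values of its own here. The label of that shared table is uncertain: its highest FPKM, 39492, is the one that the statistics block of HAC gives, where the block of LAC gives 86394. The valid reads are also exchanged between blocks of the files: the statistics block gives 72141648 for LAC and 72520954 for HAC, and the mapping block gives 72520954 for LAC and 72141648 for HAC. The coverage column of LAC in the long non-coding table does match the shared gene table, at 97.2% of 8638 loci within 5%, and that of HAC matches at 4.12% of 8795. A direction drawn from LAC or from HAC, the long non-coding values included, assumes that the headings are right. The total of estimated counts was 68523767 for the LAC table and 78461882 for CG. They are given below as CPM, counts per 1000000 of a library size scaled by the TMM method (trimmed mean of M values), and differences are LAC minus CG on the log2(CPM + 1) scale. A gene counts as higher or lower when that difference is at least 1 in size and the higher library has at least 10 counts. Ratios carry exact binomial 95% intervals that cover counting error only, since PCR reads are not independent molecules, and say nothing of variation between animals.

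GDF9, at 4.43-fold less, and BMP15, at 5.14-fold less, were lower in the library labelled LAC, and BMP6 did not pass the size rule. GDF9 had 4096 estimated counts, or 60.3 CPM, in LAC and 21145 counts, or 267 CPM, in CG. The difference was -2.13, with a counting interval of 4.22 to 4.64 on the fold. Its locus lies on sequence NC_013671.1 of OryCun2.0, from 15881064 to 15890225 on the minus strand, and holds 2 RefSeq mRNA models and 1 assembled transcript.

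BMP15, the partner of GDF9, was lower as well. It had 23394 estimated counts, or 345 CPM, in LAC and 140183 counts, or 1771 CPM, in CG. The difference was -2.36, a level 5.14-fold lower in LAC (5.04 to 5.24). Its locus is on the unplaced sequence NW_003159374.1, from 646048 to 654857 on the plus strand.

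BMP6, as counted at its locus, stood apart from GDF9 and BMP15. It had 1376 estimated counts, or 20.3 CPM, in LAC and 1537 counts, or 19.4 CPM, in CG, a difference of 0.06. The ratio of LAC to CG was 1.04 (0.941 to 1.16). BMP6 lies on sequence NC_013680.1, from 1470751 to 1648236 on the plus strand. The files give it 1 RefSeq model, whose protein they describe as of low quality, and 6 assembled transcripts. The counts may stem largely from short assembled pieces and not from that model, because the length they imply, given below, is too short for it.

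**Figure D1:**
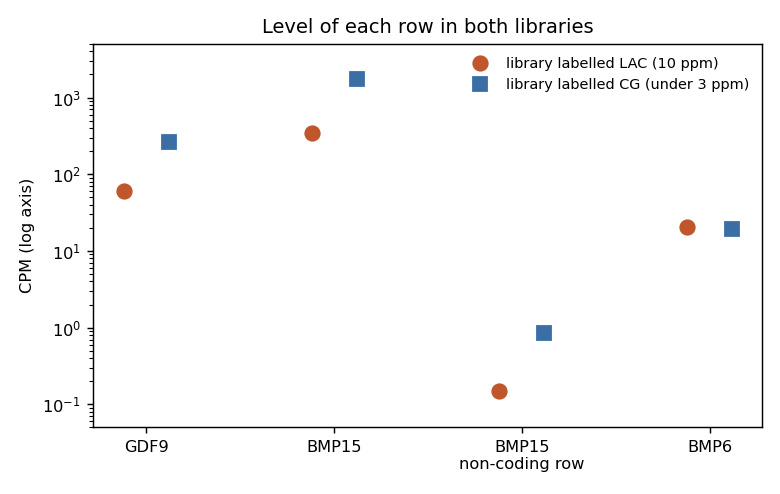
CPM (log axis) of each row named for a member, with the library labelled LAC as circles and the library labelled CG as squares, 1 library each and no error bars. GDF9 and BMP15 stand lower in LAC, at 60.3 and 345 CPM, against 267 and 1771 CPM in CG, while the BMP6 symbols are at 20.3 CPM in LAC and 19.4 CPM in CG.

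Of the 3 genes, 2 were lower and 0 higher. Of 15009 coding genes, 11.0% were lower and 1.89% higher, with a median difference of -0.14. These coding genes needed only 10 counts in the higher library, whereas genes of the lists below had to average 0.5 CPM over both. A gene below 1 CPM in both libraries cannot reach the size rule because of the pseudocount. The shares of all coding genes are therefore held down and are not matched to the members or lists in level. Only 0.833% of these coding genes had a lower difference than BMP15, and 1.57% a lower one than GDF9. Genes of low level cannot reach such differences because of the pseudocount, so these 2 shares depend on level as well. The value for BMP6 lay above that of 67.0% of coding genes.

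Differences between members do not depend on how the libraries were scaled. The log2 ratio of BMP15 was 0.22 below that of GDF9, a difference of -0.22 with a counting interval of -0.29 to -0.14. BMP15 differed from BMP6 by -2.42 (-2.58 to -2.27) and GDF9 from BMP6 by -2.21 (-2.37 to -2.04). BMP15 and GDF9 thus lay far closer to each other than either did to BMP6.

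Levels of different genes were compared per length. The length that a deposited count and FPKM imply together, on the scale set by the long non-coding transcripts of the same file, was 1615 bases for BMP15 in both libraries and 1633 bases for GDF9 in both. Per length, BMP15 had 189 FPKM and GDF9 32.8 FPKM in LAC, against 1016 FPKM for BMP15 and 152 FPKM for GDF9 in CG. BMP15 therefore stood 5.78-fold above GDF9 in LAC and 6.70-fold above it in CG. For BMP6 the implied length was 234 bases in both libraries, too short for a locus with that gene model. Its FPKM, 77.0 in LAC and 77.0 in CG, is not set beside those of GDF9 and BMP15 for this reason. The same doubt holds for the counts of BMP6. It therefore extends to its CPM, its ratio and its differences from GDF9, BMP15 and the marker lists.

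The name BMP15 also marks a row on sequence NC_013685.1, from 46747912 to 46749087 on the minus strand. Its transcript is non-coding in the files, and the RefSeq table of assembly mOryCun1.1 lists the same gene number as a transcribed pseudogene with BMP15 as a synonym. This row had 10 estimated counts, or 0.147 CPM, in LAC and 67 counts, or 0.846 CPM, in CG. It was 5.75-fold lower in LAC with a wide interval of 2.27 to 19.1, and its difference of -0.69, held down by the pseudocount, did not pass the size rule. Its counts were 0.0427% of those of BMP15 in LAC and 0.0478% in CG. Reads of BMP15 that also match the copy could be split between both rows, so the copy's own level is uncertain.

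The oocyte markers were lower in the library labelled LAC together with GDF9 and BMP15. The list was chosen with earlier results of these data known, so it is no independent check on these 2 genes. Of 37 oocyte markers other than the 3 genes, 34 were found in the tables and 31 averaged at least 0.5 CPM over both libraries. All 31 were lower by the size rule and 0 were higher, the median being -2.05 and the range -3.12 to -1.26. Of all coding genes, taken at the lower minimum of 10 counts, 11.0% were lower and 1.89% higher. The list summed to 940 CPM in LAC and 4710 CPM in CG. In bulk RNA, fewer oocytes in a sample and less RNA per oocyte cannot be told apart. The markers left below the mean of 0.5 CPM were GPR3, listed at 0 in LAC and at 0.93 CPM in CG, and SOHLH1 and FGF8, at 0 in both. FIGLA, at 0.383 CPM in LAC and 2.36 CPM in CG, reached that mean only through CG.

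WEE2, a kinase that holds meiosis in arrest, had 206 CPM in LAC and 1170 CPM in CG. BTG4, which takes part in the clearance of maternal messenger RNA, had 166 CPM in LAC and 784 CPM in CG. KPNA7, an oocyte importin, had 49.7 CPM in LAC and 344 CPM in CG. RSPO2, a secreted agonist of Wnt signalling, had the lowest difference of the list, at 22.6 CPM in LAC and 204 CPM in CG. The rest were ZP1 to ZP4 (ZP1, ZP2, ZP3, ZP4), which encode the egg coat, the maternal complex genes NLRP5, NLRP2, OOEP, KHDC3L and PADI6, the transcription factors FIGLA, NOBOX, LHX8 and SOHLH2, and the germ-cell genes DDX4, DAZL, MAEL, TDRD1, YBX2, PATL2, PABPC1L, ZAR1, MOS, DPPA3, NPM2 and H1-8, with BCL2L10 and the Notch ligand JAG1. Several of these, JAG1 and BCL2L10 among them, are expressed by other cells too.

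GDF9 and BMP15 lay inside the range of the oocyte list and BMP6 lay outside it. The difference of GDF9 was above that of 13 of the 31 markers and below that of 18. The difference of BMP15 was above 9 and below 22. The difference of BMP6 was above all 31, and remained so under each of the 6 other settings tried for scaling, pseudocount and unit. Per 1000 counts of the detected oocyte markers, BMP15 had 367 counts in LAC and 376 in CG, and GDF9 had 64.2 in LAC and 56.7 in CG. BMP6 had 21.6 in LAC and 4.12 in CG on that measure, 5.23-fold more in LAC. Since the CPM ratio of BMP6 itself was 1.04 (0.941 to 1.16), this figure restates the lower counts of the oocyte markers in LAC.

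Markers of the somatic cells of the complex differed less. Of 19 granulosa and cumulus markers, 16 were found and detected, and they ran from -0.90 to 0.70 with a median of 0.14. By the rule 0 of them were lower or higher, where 11.0% of all coding genes were lower and 1.89% higher. They summed to 14484 CPM in LAC and 14291 CPM in CG. GJA1, the gap junction protein of these cells, had 4814 CPM in LAC and 4933 CPM in CG. The inhibin and activin subunit INHBB had 2668 CPM in LAC and 2881 CPM in CG, and INHA had 2379 CPM in LAC and 2219 CPM in CG. BMP6 lay within the range of this list as well. Its source among the cells was not tested.

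**Figure D2:**
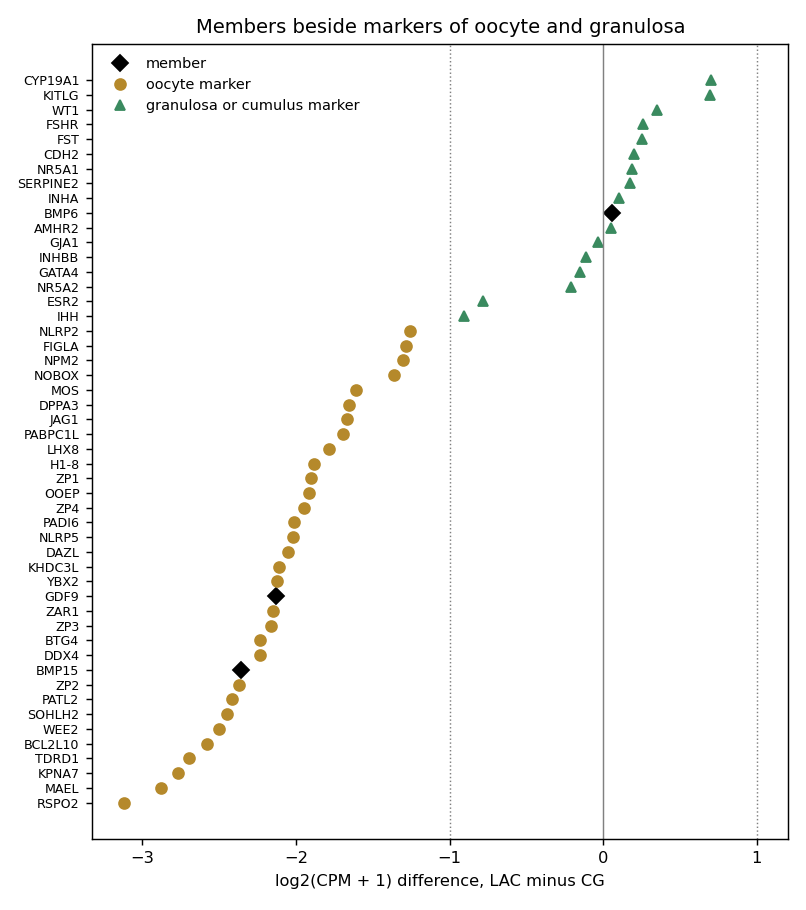
Difference on the log2(CPM + 1) scale, LAC minus CG, for the members (diamonds), the 31 detected oocyte markers (circles) and the 16 granulosa and cumulus markers (triangles), with dotted lines at 1 and -1. GDF9 and BMP15 stand among the oocyte markers, which run from -3.12 to -1.26, and BMP6 at 0.06 stands among the granulosa and cumulus markers.

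Lists for other cells went both ways, where 11.0% of all coding genes were lower and 1.89% higher. Of the 8 detected stromal fibroblast markers, 5 were higher in LAC (COL1A1, COL1A2, COL3A1, DCN and POSTN) and MFAP4 was lower. POSTN had 59.5 CPM in LAC and 9.99 CPM in CG, DCN had 31.1 CPM in LAC and 4.46 CPM in CG, and all 10 summed to 142 CPM in LAC and 42.6 CPM in CG. Of 7 theca markers 1 was higher, NR2F2, and of 7 smooth muscle markers 2 were, DES and PDGFRB. The theca markers summed to 184 CPM in LAC and 165 CPM in CG, and the smooth muscle markers to 89.2 and 79.7 CPM in LAC and CG. TEK, at 4.23 CPM in LAC and 46.7 CPM in CG, was lower among 4 endothelial markers. TEK made up most of that list's sum in CG, which was 9.04 CPM in LAC and 50.3 CPM in CG. The list's median was -0.05, with PECAM1 at 0.25, VWF at 0.30 and EMCN at -0.35. MSR1, at 8.20 CPM in LAC and 47.3 CPM in CG, was lower and MRC1 higher among 6 macrophage markers. The list summed to 26.4 CPM in LAC and 53.4 CPM in CG, with MSR1 most of the sum in CG. Its median was 0.63, and the markers other than MSR1 had differences of 0.34 (CSF1R), 0.52 (CD68), 0.73 (PTPRC), 0.87 (CD14) and 2.38 (MRC1). MS4A1, at 2.83 CPM in LAC and 14.0 CPM in CG, was lower of 2 detected lymphocyte markers. The matched lymphocyte list summed to 5.39 CPM in LAC and 16.5 CPM in CG, and in it CD3E and NKG7 were at 0 in both. CDH1 and EPCAM were lower and KRT18 higher among 4 detected epithelial markers, with a list sum of 21.8 CPM in LAC and 82.9 CPM in CG and KRT19, PAX8 and OVGP1 at 0 in both. Of the red blood cell markers, SLC4A1 alone was detected, and it was lower, the list being at 0.280 CPM in LAC and 3.73 CPM in CG. The part of these cells in the differences of the 3 genes was not tested.

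The other detected ligands of the superfamily had no difference below -0.11, where GDF9 was at -2.13 and BMP15 at -2.36. Of 25 ligands, 22 were found and 12 detected, of which 0 were lower and 2 higher, with a median of 0.27. In a list this short, 0 lower is not far from the 11.0% of all coding genes that were lower, and 1.89% were higher. The higher ones were BMP2, with 15.7 CPM in LAC and 6.28 CPM in CG, a ratio of 2.50 (2.15 to 2.92), and GDF7, with 3.87 CPM in LAC and 0.240 CPM in CG. GDF7 rested on 19 estimated counts in CG, and its ratio of 16.1 had an interval of 8.11 to 32.8. Among the subunits of inhibins and activins, INHBA, which forms activin A, had 2259 CPM in LAC and 2418 CPM in CG. BMP4 had 12.3 CPM in LAC and 12.2 CPM in CG.

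Of 9 listed proteases that cut precursors of the superfamily, 8 were detected, 1 was lower and 0 higher, with a median of -0.31. That share is near the 11.0% of all coding genes that were lower. The lower gene was TLL1, a protease of the BMP1 family, with 1.02 CPM in LAC and 3.60 CPM in CG. BMP1 had 64.9 CPM in LAC and 57.3 CPM in CG. FURIN, the convertase that cleaves many precursors of the superfamily, had 43.3 CPM in LAC and 75.1 CPM in CG, a difference of -0.78. PCSK7 had 19.4 CPM in LAC and 15.7 CPM in CG.

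Extracellular antagonists were near 0 in their median, at 0.05. Of 17 listed, 16 were found and 9 detected, with 0 lower and 1 higher, beside 11.0% of coding genes lower and 1.89% higher. The higher gene was NBL1, a secreted BMP antagonist, whose symbol came from the RefSeq table, with 1.80 CPM in LAC and 0.278 CPM in CG. NBL1 rested on 122 estimated counts in LAC and 22 in CG, and its ratio of 6.47 had an interval of 3.37 to 13.6. FST, the activin-binding protein follistatin, had 278 CPM in LAC and 234 CPM in CG. FSTL1 had 242 and 236 CPM in LAC and CG, and the pseudoreceptor BAMBI 98.5 and 94.4 CPM in LAC and CG. GREM1, which cumulus cells of mouse and human express under the oocyte's influence, was at 0 in both libraries.

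Receptors were lower in 2 cases and higher in 1, among 14 detected of 17 listed, with a median of -0.13. BMPR2, the type II receptor for BMP15 and GDF9, had 440 CPM in LAC and 457 CPM in CG. TGFBR1, the type I receptor for GDF9, had 179 CPM in LAC and 162 CPM in CG. BMPR1B, the type I receptor for BMP15, had 101 CPM in LAC and 77.2 CPM in CG, and BMPR1A had 97.1 and 163 CPM in LAC and CG, a difference of -0.75. Those lower by the rule were the activin receptors ACVR2A, with 46.8 CPM in LAC and 109 CPM in CG, and ACVR1B, with 12.3 CPM in LAC and 33.8 CPM in CG. ACVR2A was 2.33-fold lower (2.20 to 2.47) and ACVR1B 2.74-fold (2.45 to 3.06). TGFBR2, the type II receptor for TGF-beta, was higher, at 4.30 CPM in LAC and 0.695 CPM in CG. In share, 2 of 14 lower is near the 11.0% of all coding genes.

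SMAD transducers and their regulators had 0 lower and 0 higher among 11 detected of 13, the median being -0.20 and the range -0.95 to 0.30. For a list of that length this is not far from the shares of all coding genes, 11.0% lower and 1.89% higher. SMAD5 had 358 CPM in LAC and 435 CPM in CG. SMAD3 had 193 and 206 CPM in LAC and CG, and SMAD2 had 90.0 CPM in LAC and 129 CPM in CG. SMAD9, which encodes SMAD8, lay lowest, at 17.6 CPM in LAC and 35.1 CPM in CG. The inhibitory SMAD6 and SMAD7 were at 7.42 and 6.13 CPM in LAC, against 5.86 CPM for SMAD6 and 6.88 CPM for SMAD7 in CG.

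Genes that oocyte-secreted factors are reported to regulate in cumulus or granulosa cells, mostly in mouse, were listed together whatever their reported direction. The counts and median of the list therefore cannot show whether these genes followed GDF9 and BMP15. Of 27 listed, 24 were detected, 1 was lower and 1 higher, the median being -0.18 and the range -1.20 to 1.43. Of all coding genes, 11.0% were lower and 1.89% higher. ID2, a transcriptional inhibitor that BMP signals induce, was lower, at 3.96 CPM in LAC and 10.4 CPM in CG, 2.62-fold (2.16 to 3.22). Its relative ID3 had 110 CPM in LAC and 112 CPM in CG, and ID1 had 6.49 and 11.7 CPM in LAC and CG. PTX3, a protein of the expanded cumulus matrix, was higher, at 37.3 CPM in LAC and 13.2 CPM in CG, a ratio of 2.82 (2.55 to 3.13). HAS2, the hyaluronan synthase of expansion, had 93.7 CPM in both. The 3 with the highest mean CPM were FSHR, with 414 CPM in LAC and 346 CPM in CG, PKM, with 241 and 354 CPM in LAC and CG, and LDHA, with 188 CPM in LAC and 338 CPM in CG. LDHA, PKM and PFKP, enzymes of glycolysis, differed by -0.85, -0.55 and -0.97, and the cholesterol synthesis genes SQLE and CYP51A1 each by -0.74, none past the rule. The other cholesterol synthesis genes listed, EBP, FDPS, HMGCS1 and MVK, differed by -0.63, -0.54, -0.36 and -0.17. KITLG, CYP19A1 and LHCGR differed by 0.70, 0.70 and 0.56, and STAR by -0.48.

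**Figure D3:**
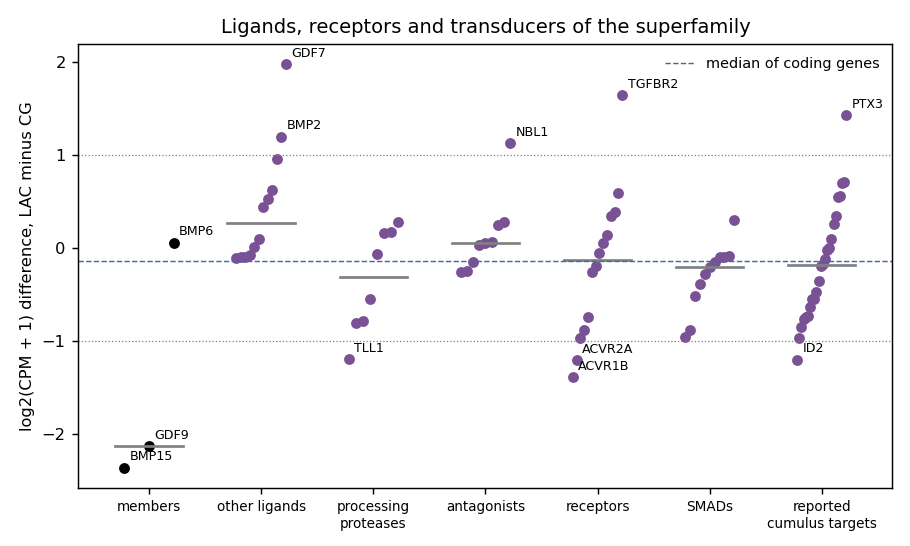
Difference on the log2(CPM + 1) scale, LAC minus CG, for the detected genes of each role, with a grey bar at each list's median, a dashed line at the coding gene median of -0.14 and dotted lines at 1 and -1. BMP15 and GDF9 lie below every other gene shown, of which the lowest is ACVR1B at -1.38.

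The genes nearest to each member in level and difference were sought among 12529 coding genes with a symbol of their own, by Euclidean distance between the log2(CPM + 1) values of both libraries. Nearest to GDF9 were IPO8, an importin, at a distance of 0.07, with 61.0 CPM in LAC and 279 CPM in CG, NLRP5 at 0.12 and PBK at 0.14. BMP15 had no gene as near, but few genes reach its level: by CPM it ranked 12 of 15009 coding genes in CG and 248 in LAC. The closest were PCNA at 0.66, the DNA replication clamp, with 539 CPM in LAC and 1599 CPM in CG, WEE2 at 0.95 and DNMT1 at 1.18. Nearest to BMP6 were TLE3 at 0.01, KBTBD3 at 0.02 and IGF1 at 0.03. A likeness over 2 libraries describes only their values.

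The coding genes within 100 kb of GDF9 were CCNI2, SEPT8, SOWAHA, SHROOM1, UQCRQ, LEAP2 and AFF4. CCNI2 alone was lower by the size rule, which in a set this small is not far from the 11.0% of all coding genes. LEAP2, SHROOM1 and SOWAHA were too low in both libraries to pass it. UQCRQ, a subunit of respiratory complex III, runs away from GDF9 on the other strand with 108 bases between the annotated loci. It had 35.3 CPM in LAC and 24.6 CPM in CG, a difference of 0.50. On the other side SHROOM1 had 14 estimated counts in LAC and 0 in CG, and SOWAHA beyond it 0 in LAC and 21 in CG. Counting intervals put SHROOM1 at least 1.68-fold higher and SOWAHA at least 1.92-fold lower in LAC. The pseudocount held both differences down, so these do not show whether either gene shared that of GDF9. AFF4, which lies beyond UQCRQ, had 210 CPM in LAC and 161 CPM in CG, and SEPT8 29.7 and 33.7 CPM in LAC and CG. CCNI2, 88087 bases from GDF9 and singled out after its values were seen, had 10.2 CPM in LAC and 85.5 CPM in CG. It was 8.39-fold lower (7.51 to 9.40), and its locus overlaps SEPT8 on the other strand.

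BMP15 has 1 coding gene on either side on its sequence. SHROOM4, 76750 bases away, had 13.0 CPM in LAC and 18.1 CPM in CG, a difference of -0.46. LOC100356926, 195865 bases away on the other side, had 1.65 CPM in LAC and 8.08 CPM in CG. It was lower by the rule, 4.90-fold (3.68 to 6.63), beside 11.0% of all coding genes that were lower. The RefSeq table gives its gene number the symbol EZHIP, an inhibitor of the Polycomb methyltransferase known from the germ line.

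BMP6 shares 1188 bases at its 3' end with TXNDC5, a protein disulfide isomerase gene on the opposite strand. TXNDC5 had 8285 estimated counts, or 122 CPM, in LAC and 8360 counts, or 106 CPM, in CG. The library preparation marks strand with dUTP, per the labels, but the files do not state that counting used it, so reads of both genes may not be told apart there and the level of BMP6 is uncertain to that extent. SNRNP48, on the other side, had 12.8 CPM in LAC and 11.6 CPM in CG.

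**Figure D4:**
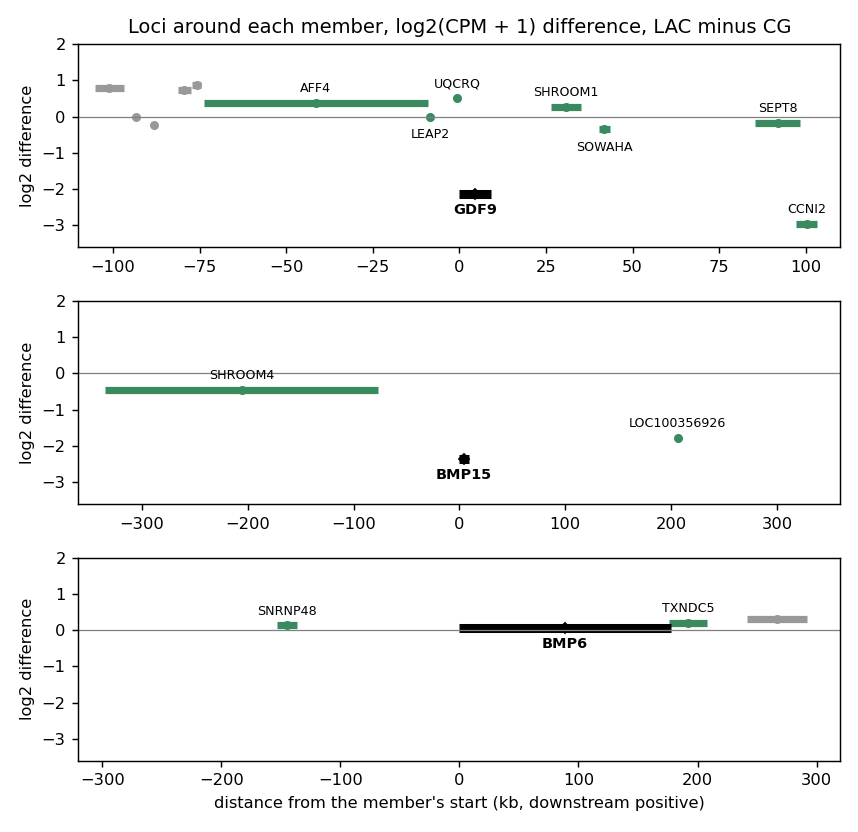
Loci around each member, placed by distance from the member's start (kb, downstream positive) and by their log2(CPM + 1) difference, LAC minus CG, with the member in black, coding genes in green and other loci in grey. GDF9 at -2.13 stands apart from UQCRQ at 0.50 next to it, BMP15 at -2.36 from SHROOM4 at -0.46, and BMP6 at 0.06 lies near TXNDC5 at 0.21; LEAP2 has no counts in either library.

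The long non-coding table, the only one with values for HAC, has no transcript that overlaps GDF9, BMP15 or BMP6, and none within 100 kb of BMP15 or BMP6. The doubt over the labels LAC and HAC holds for its columns too. Within 100 kb of GDF9 it has 6 loci. In LAC against CG, 0 of these 6 were lower or higher by 1 on the log2(FPKM + 1) scale, where 10.8% of 9588 long non-coding loci were lower and 13.2% higher. In HAC against CG, 1 of the 6 was higher and 0 lower, where 8.21% of 8647 loci were higher and 5.64% lower. In HAC against LAC the same locus was higher and 0 were lower, where 14.6% of 9939 loci were higher and 12.3% lower. That locus was MSTRG.3333, through an isoform that shares splice sites with UQCRQ, listed at 0 in CG, at 0 in LAC and at 24.3 FPKM in HAC. UQCRQ itself, at the same locus, had 1947 estimated counts in CG and 2397 in LAC, so the locus was not silent there. HAC has no gene value to set beside these, and how reads were split among isoforms was not tested. The 5 others are intergenic loci without a strand, from 74628 to 96807 bases beyond GDF9. The nearest of them, MSTRG.3335, was at 0.76 FPKM in CG, at 1.62 in LAC and at 0.78 in HAC. Beside the non-coding BMP15 row, at 87809 bases, the known transcript of LOC108178297 was at 1.71 FPKM in CG, at 3.27 in LAC and at 0.15 in HAC. Its difference was -1.24 in HAC against CG and -1.89 in HAC against LAC. Of all long non-coding loci, 5.64% were lower in the first comparison and 12.3% in the second. The assembled locus of this transcript also holds the coding gene NOVA1.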

How the data were processed

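RNA of cumulus-oocyte complexes was sequenced after depletion of ribosomal RNA, per the labels' protocols. The build OryCun2.0 and the tools HISAT2 and fastp are listed, per the submitters' processing notes. The assembly and abundance steps are not given in the sources used here. The gene table holds estimated counts and FPKM, and the long non-coding table holds a coverage signal (depth per base) and FPKM, per the file headers. Columns with values of a library numbered 12, and 2 of them went unused because the gene table in the file of HAC copies LAC. At loci with 1 long non-coding transcript, coverage times length divided by 75 gave the deposited count within 5% at 97.2% of 8638 loci for LAC and 96.3% of 8651 for CG, against 4.12% of 8795 when HAC coverage was set against the shared table. Reads have 150 bases, so each count equals about 0.5 reads and intervals were computed on counts divided by 2.

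Counts were scaled by TMM over all loci, trimming 30% of ratios and 5% of levels, with a pseudocount of 1, in Python 3.11.15 with pandas 2.3.3, numpy 2.4.6 and SciPy 1.17.1, and the code was tested on simulated data. With 1 library a group no test was run. Coding genes are rows with a RefSeq mRNA, and list genes were matched by name or, for LOC names, by gene number in the RefSeq table of mOryCun1.1. Where a name marks several rows, the coding row with most counts was taken. Named genes are, of each list, those past the size rule and up to 3 with the highest mean CPM, the 3 nearest genes in level, and the coding genes beside each member. BMP4, BMPR1B, SMAD6, SMAD7, SMAD9, GREM1, ID1, ID3, HAS2, PFKP, SQLE, CYP51A1 and the genes farther along the GDF9 locus were named after their values were seen. So were EBP, FDPS, HMGCS1, MVK, KITLG, CYP19A1, LHCGR and STAR. The members and lists were chosen with earlier results of these data known. Alternatives were median-of-ratios factors, TMM over coding genes, library totals, pseudocounts of 0.1 and 5, the deposited FPKM and no count minimum.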

Additional observations from a re-analysis of the deposited data

How the results depend on the processing

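GDF9 and BMP15 kept their direction and stayed past the size rule under all alternatives, GDF9 between -2.18 and -1.95 and BMP15 between -2.42 and -2.18, and BMP6 stayed between 0.00 and 0.23. TMM over coding genes alone, which shifted the coding median by 0.14, gave -1.95 for GDF9, -2.18 for BMP15 and 0.23 for BMP6. Median-of-ratios factors gave -2.39 and the deposited FPKM -2.42 for BMP15, and a pseudocount of 5 gave -2.06 for GDF9. Summing both rows named BMP15, an alternative chosen after seeing the data, left it at -2.36. Lower coding genes numbered 2740 with a pseudocount of 0.1 and 909 with a pseudocount of 5, and higher ones 943, 112 and, by deposited FPKM, 179, against 1653 and 283. Of the list genes, 15 were higher, or 6 with a pseudocount of 5 and 9 by deposited FPKM. The median of the receptors ran from -0.18 to 0.03, of the antagonists from -0.01 to 0.22 and of the endothelial markers from -0.12 to 0.04, so these have no direction that holds under every setting. All 31 oocyte markers were past the rule in 4 other settings, 26 with a pseudocount of 5 and 29 by deposited FPKM. No paired analysis was possible because each group has 1 library, and no library could be left out. Counting error is small for BMP15 and wide for the non-coding BMP15 row, and variation between animals was not measured.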
